A study of Mus musculus with 12 samples.

Results

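Matrix genes were read in mouse B cell lymphomas with and without Prps2, an enzyme that makes the phosphoribosyl pyrophosphate from which nucleotides are built. The set was Col3a1 (transcript ENSMUST00000087883) and those of 9 other matrix or fibroblast genes for which the study pairs a gene name with a transcript of the deposited table. Of the 10 genes, 5 were paired: Col3a1, Col1a1, Col1a2, Sparc and Bgn. The other 5, Col6a1, Fn1, Dcn, Lum and Pdgfrb, were not paired and were not analysed here. The table holds 20561 transcripts, of which 2634 (12.8%) carry a paired name. All 5 members have their name through a list of transcripts that the study selected for raised translation efficiency, so their genotype contrasts are given below as a description. No p-value is printed for them, and where a member passed the threshold of a fit over all transcripts, this is set beside the share of all transcripts that did and nothing is read from it.

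The sample labels describe allografts, in which cells of Eμ-Myc/+ or Eμ-Myc/+ Prps2null lymphomas were injected into the tail vein of untreated male C57BL/6 hosts aged 8 weeks, and B lymphocytes enriched from lymph node suspensions. The methods of the study instead speak of lymphoma cells taken from tumor-bearing mice of the 2 genotypes. Whether non-lymphoma cells in these samples carried an intact Prps2 or the null allele is therefore not known. Both genotypes carry the Eμ-Myc transgene, in which an immunoglobulin enhancer drives Myc in the B lineage. Each genotype had 3 libraries of total RNA and 3 Ribo-seq libraries, which sequence the ribosome-protected fragments (RPF, or footprints) of mRNA. The labels call them biological replicates without saying whether each came from a separate primary lymphoma.

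Fibrillar collagens are the ropes of connective tissue. Type I collagen is assembled from the products of Col1a1 and Col1a2, and type III collagen from that of Col3a1, on ribosomes of the endoplasmic reticulum in fibroblasts and related mesenchymal cells. Sparc encodes a collagen-binding glycoprotein that is also made by endothelial cells, and Bgn encodes biglycan, a small proteoglycan that binds collagen fibrils. In a lymph node these products belong to the reticular network, the capsule and the vessel walls, not to B cells, and they are commonly read as stroma within a tumor.

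The members lie on 4 chromosomes of the mouse genome (GRCm38.p6, coordinates of the whole gene). Col3a1 is at chr1:45311538-45349706, Col1a1 at chr11:94936224-94953042, Col1a2 at chr6:4505618-4541543, Sparc at chr11:55394159-55420080 and Bgn at chrX:73483601-73495936. The mRNAs of the type I collagen genes share a stretch just before the start codon, which is shown because footprints and RNA of these genes are set against each other below. In collagen mRNAs the region around the start codon is known to fold into a stem-loop that the RNA-binding protein LARP6 recognizes. The last 30 bases of the 5′ UTR as the authors list them, 5′ to 3′, read as follows, with the longest run shared at the same place in capitals.
Col1a1: gcaaagagtctaCATGTCTAgggtctagac
Col1a2: acaaggagtctgCATGTCTAagtggtagac

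The capitals start 18 bases before the start codon, and 23 of the 30 bases are identical. The 8-base run CATGTCTA, searched on the mRNA strand only, was in the last 30 bases of 2 of 1389 readable 5′ UTRs (0.144%), those of Col1a1 and Col1a2. These 1389 are from the authors' list for their analysis of 5′ UTR motifs and do not cover every transcript. The run was absent from that window in Sparc and Bgn, and the sequence of Col3a1 was not analysed here.

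Library totals were 4135908 to 6648829 counts in RNA-seq and 975201 to 2793163 in Ribo-seq, so that 3 counts in the shallowest Ribo-seq library stand at 3.08 CPM, the unit of counts scaled to one common library size. Prps2 RNA (ENSMUST00000026839) was 56.5 to 60.9 CPM in the Eμ-Myc/+ libraries and 8.53 to 10.9 CPM in the Prps2null libraries. Prps2 footprints went against the label in a pair of Ribo-seq libraries. The library labelled Eμ-Myc/+ replicate 3 had 8.18 CPM where replicates 1 and 2 had 162.5 and 129.1 CPM, and the library labelled Prps2null replicate 2 had 139.7 CPM where replicates 1 and 3 had 5.11 and 9.65 CPM. Samples were kept in their labelled groups, and footprint levels and fits are given with and without these 2 libraries. The correlations and the likeness of patterns use all libraries. Counts are not divided by transcript length, so levels are compared between libraries and not between genes.

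Col3a1 and Col1a2 RNA were each lower in every Prps2null library than in any Eμ-Myc/+ library. Col1a1 RNA was lower on average with an overlap of 1 library, while Sparc and Bgn RNA overlapped between the genotypes. On footprints, none of the 3 collagen genes separated the labelled groups. Their highest value was in the library labelled Prps2null replicate 2, whose Prps2 footprints went against its label. Without the libraries in doubt, their highest value was in Eμ-Myc/+ replicate 2.

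Col3a1 RNA was 22.2, 48.6 and 40.7 CPM in Eμ-Myc/+ replicates 1, 2 and 3, and 2.66, 2.65 and 1.45 CPM in Prps2null replicates 1, 2 and 3. The means were 37.2 ± 13.5 and 2.25 ± 0.70 CPM (SD, n = 3 each), a 16.5-fold higher level in Eμ-Myc/+ lymphomas. The Prps2null values rest on 11, 14 and 7 counts, against 104, 323 and 196 counts in Eμ-Myc/+ lymphomas. The groups did not overlap, with Prps2null lower, as was the case for 16.6% of all transcripts tested. The rule that named Col3a1 used this contrast. In a bulk sample, fewer cells that make a transcript and less of it per cell cannot be told apart.

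Col1a2 RNA, which encodes the second chain of type I collagen, was 6.41, 16.5 and 17.5 CPM in Eμ-Myc/+ replicates 1, 2 and 3, and 2.66, 1.33 and 2.48 CPM in the Prps2null replicates. The groups did not overlap, and the mean was 6.25-fold higher in Eμ-Myc/+ lymphomas. Col1a1 RNA, which encodes the first chain, was 18.2, 41.8 and 41.8 CPM in Eμ-Myc/+ replicates 1, 2 and 3, and 19.1, 9.86 and 7.85 CPM in the Prps2null replicates. Here Prps2null replicate 1 stood just above Eμ-Myc/+ replicate 1, and the mean was 2.76-fold higher in Eμ-Myc/+ lymphomas. Eμ-Myc/+ replicate 1 was the lowest Eμ-Myc/+ library for all 5 members.

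Sparc RNA was 3.63, 6.47 and 7.28 CPM in the Eμ-Myc/+ replicates and 4.59, 4.17 and 5.16 CPM in the Prps2null replicates. The Prps2null values lay within the Eμ-Myc/+ range. Bgn RNA was 5.34, 6.62 and 10.4 CPM in the Eμ-Myc/+ replicates and 16.4, 11.6 and 6.82 CPM in the Prps2null replicates. The higher mean was that of the Prps2null group, by 1.56-fold, with overlapping values.

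**Figure D1:**
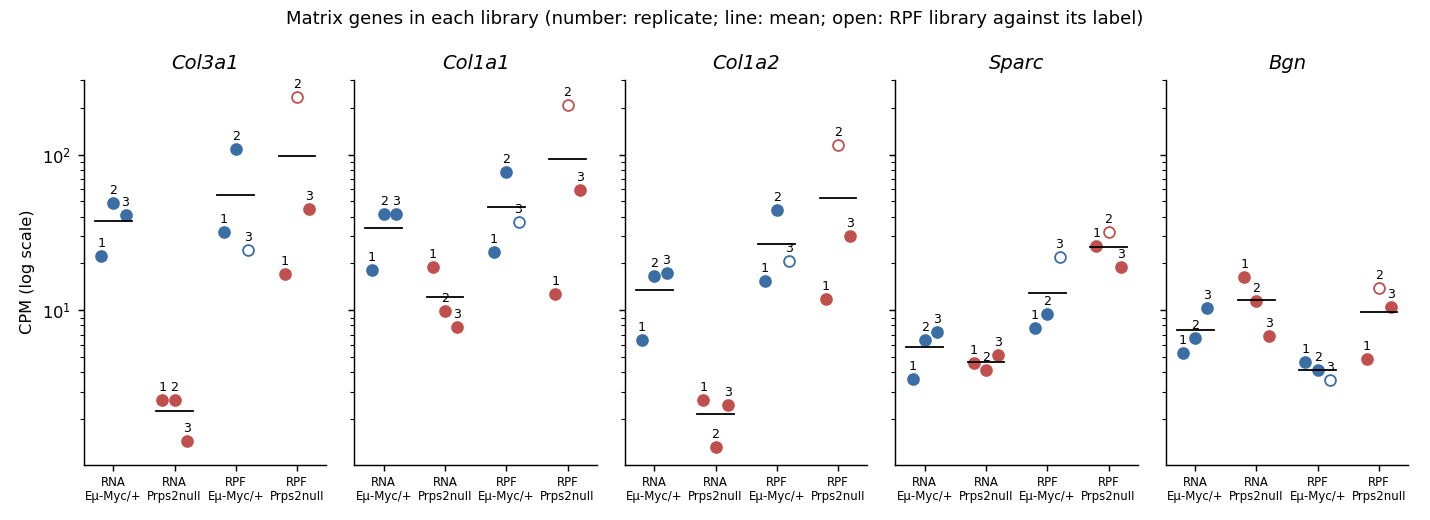
CPM on a log scale of the 5 members in the 12 libraries, RNA left and footprints right in each panel, blue for Eμ-Myc/+ and red for Prps2null, with the replicate number at each point, a line at the group mean and open points for the 2 Ribo-seq libraries whose Prps2 footprints went against their labels. Col3a1 RNA is at 1.45 to 2.66 CPM in the Prps2null libraries and 22.2 to 48.6 CPM in the Eμ-Myc/+ libraries, and the highest footprint value of every member is the open red point.

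In the fit over all 14682 transcripts tested in RNA-seq (edgeR's quasi-likelihood test, Benjamini-Hochberg adjusted p under 0.05), the log2 fold change of Prps2null over Eμ-Myc/+ was −4.31 ± 0.34 (SE) for Col3a1, −2.93 ± 0.44 for Col1a2, −1.75 ± 0.34 for Col1a1, −0.60 ± 0.40 for Sparc and 0.37 ± 0.36 for Bgn. The 3 collagen genes were past the threshold as lower and the other 2 members were not. Over all transcripts, 18.5% were past it as lower and 14.7% as higher, and the rule that named the members used this contrast. Groups did not overlap, with Prps2null lower, for 2 of the 5 members and for 16.6% of all transcripts. The Bgn value turned to −0.01 without Prps2null RNA replicate 1. When a transcript needed at least 10 counts in every library, Col3a1 and Col1a2 were no longer tested, as their lowest library held 7 counts each.

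Col3a1 footprints were 31.7, 108.5 and 24.4 CPM under the Eμ-Myc/+ label (replicates 1, 2 and 3), and 17.2, 233.1 and 44.6 CPM under the Prps2null label. Col1a1 footprints were 23.7, 77.1 and 36.7 CPM and then 12.7, 207.9 and 59.4 CPM in the same order. Col1a2 footprints were 15.4, 43.7 and 20.8 CPM and then 11.9, 115.7 and 30.0 CPM. For each of the 3 genes Prps2null replicate 2 was highest, Eμ-Myc/+ replicate 2 next and Prps2null replicate 3 after it, and Prps2null replicate 1 was lowest. This order followed Prps2 footprints only in part. Over the 6 Ribo-seq libraries, Pearson's r of log2(CPM + 1) with Prps2 was 0.70 for Col3a1, 0.52 for Col1a1 and 0.54 for Col1a2. Of the libraries with high Prps2 footprints, Prps2null replicate 2 and Eμ-Myc/+ replicate 2 were the top 2 for the collagen genes, but Eμ-Myc/+ replicate 1, which had the most Prps2 footprints, was below Prps2null replicate 3 for each of them.

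Sparc footprints were 7.75, 9.41 and 21.9 CPM under the Eμ-Myc/+ label and 26.0, 31.9 and 19.0 CPM under the Prps2null label. Without the 2 libraries in doubt the groups did not overlap and Prps2null was higher, at 22.5 ± 4.9 against 8.58 ± 1.18 CPM (SD, n = 2 each), as was the case for 36.6% of all transcripts tested in these 4 libraries. Bgn footprints were 4.69, 4.17 and 3.57 CPM under the Eμ-Myc/+ label and 4.88, 14.0 and 10.5 CPM under the Prps2null label. These Bgn values did not overlap, although the nearest libraries differed by less than 1 count's worth of CPM at that depth, and Bgn was below the count minimum of the footprint test. Over all 6 libraries, 1.64% of the transcripts tested in Ribo-seq did not overlap with Prps2null higher.

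All 5 members had their highest footprint CPM in the library labelled Prps2null replicate 2, as did 15.8% of all transcripts tested in Ribo-seq. The summed footprints of the 5 members were 602.7 CPM in that library and 72.6 to 243.0 CPM in the other 5. In the RNA library of the same label the sum was 29.6 CPM, the second lowest of the RNA libraries. The sum of RNA was 97.8 ± 36.4 CPM in Eμ-Myc/+ lymphomas and 32.9 ± 11.2 CPM in Prps2null lymphomas (SD, n = 3 each), or 0.00558% to 0.0120% and 0.00238% to 0.00455% of all counts. The RNA of these 5 members was thus a small part of each library. Other matrix genes, most of which have no paired name, are not in this sum.

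The Ribo-seq fit gave a log2 fold change of 0.83 ± 1.00 (SE) for Col3a1, 1.01 ± 0.91 for Col1a1, 0.95 ± 0.82 for Col1a2 and 0.90 ± 0.43 for Sparc. None of the 4 members tested was past the threshold, and 0.00% of the 9031 transcripts tested were, by edgeR or DESeq2, with 47 at an unadjusted p under 0.05 by edgeR. Without the 2 libraries in doubt the values were −1.21 ± 0.43 for Col3a1, −0.49 ± 0.49 for Col1a1, −0.54 ± 0.43 for Col1a2 and 1.31 ± 0.39 for Sparc, and Col3a1 (lower) and Sparc (higher) were past the threshold. In that fit 35.9% of all transcripts were past it, 17.9% as lower and 18.0% as higher. The sign of the 3 collagen genes therefore depended on the library labelled Prps2null replicate 2, whose removal alone gave −0.81 for Col3a1, −0.33 for Col1a1 and −0.36 for Col1a2, while Sparc had the same sign throughout.

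**Figure D2:**
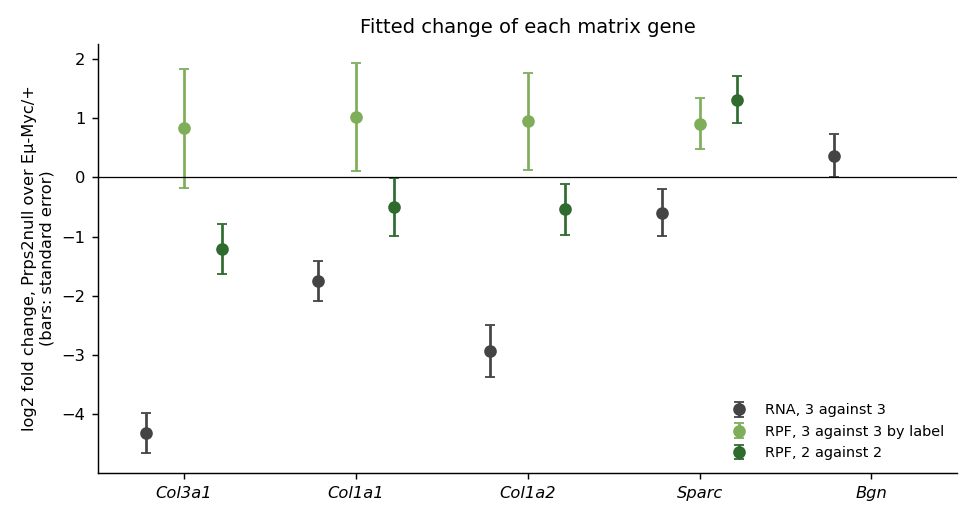
Fitted log2 fold change of Prps2null over Eμ-Myc/+ for each member, with the standard error as bars, in RNA (grey), in footprints by label (light green) and in footprints without the 2 libraries in doubt (dark green). Col3a1 is at −4.31 in RNA, 0.83 in footprints by label and −1.21 without those libraries, and Bgn has no footprint value because it was below the count minimum.

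Footprints per RNA, the footprint CPM divided by the RNA CPM of the same label and number, show how the 2 readouts of each lymphoma relate. For Col3a1 the ratio was 1.43 in Eμ-Myc/+ replicate 1 (95% interval of counting error 0.92 to 2.12), 2.23 in replicate 2 (1.79 to 2.79) and 0.60 in replicate 3 (0.45 to 0.79). It was 6.47 in Prps2null replicate 1 (3.10 to 14.1), 87.8 in replicate 2 (51.2 to 163.0) and 30.8 in replicate 3 (14.3 to 79.4). The median over all transcripts was 1.57 to 2.07 in the 6 lymphomas. Eμ-Myc/+ replicate 3 and Prps2null replicate 2 rest on Ribo-seq libraries in doubt, and the Prps2null ratios were above the Eμ-Myc/+ ones with or without those 2 values. The share of all transcripts whose groups separate in this ratio was not counted, so nothing is read from the separation of any member.

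Col1a2 behaved likewise, with 2.40, 2.64 and 1.19 in the Eμ-Myc/+ lymphomas and 4.47, 87.2 and 12.1 in the Prps2null lymphomas. Col1a1 did not separate the groups, with 1.30, 1.84 and 0.88 against 0.67, 21.1 and 7.57, where Prps2null replicate 1 was the lowest of the 6. Sparc also separated the groups, with 2.13, 1.46 and 3.01 against 5.65, 7.65 and 3.69. Bgn did not, with 0.88, 0.63 and 0.34 against 0.30, 1.21 and 1.54. Among transcripts tested in both assays, Col3a1 in Prps2null replicates 2 and 3 stood at the 99.9th percentile of this ratio, and in Prps2null replicate 1 at the 90.6th. These ranks rest on 14, 7 and 11 RNA counts, and that of replicate 2 on a Ribo-seq library in doubt. Col3a1 was named through a list selected for raised translation efficiency, so its ranks describe the selection.

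**Figure D3:**
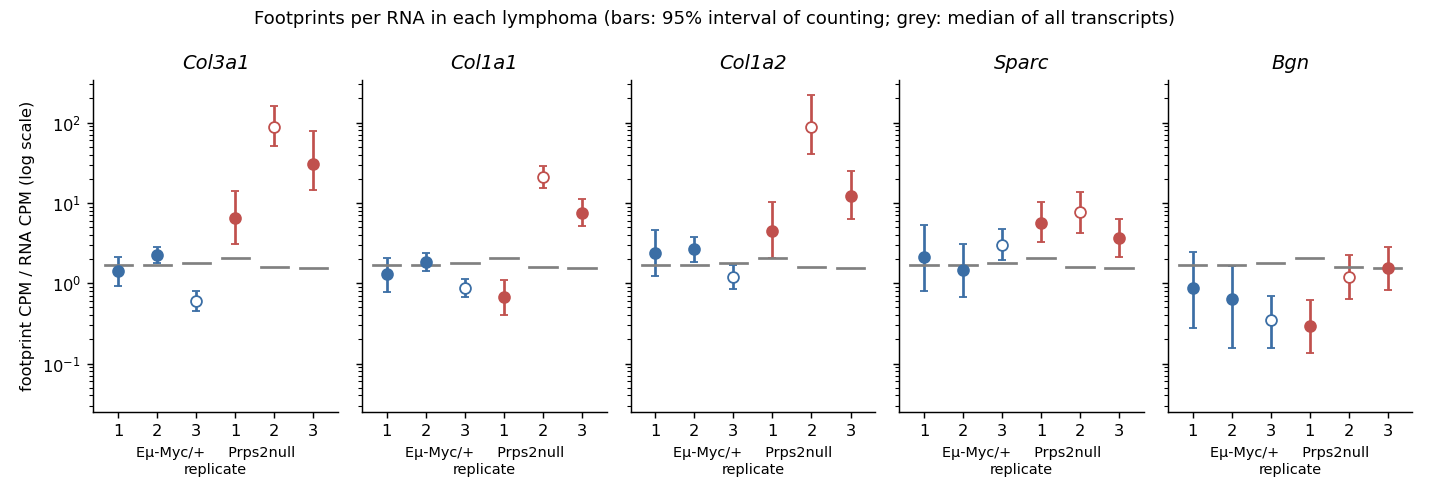
Footprint CPM over RNA CPM on a log scale for each member in the 6 lymphomas, blue for Eμ-Myc/+ and red for Prps2null, with 95% intervals of counting error, a grey line at the median of all transcripts and open points where the Ribo-seq library went against its label. Col3a1 lies at 6.47 to 87.8 in the Prps2null lymphomas and at 0.60 to 2.23 in the Eμ-Myc/+ lymphomas, and Col1a1 in Prps2null replicate 1 lies at 0.67.

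As a fitted change in translation efficiency (TE, the interaction of genotype and assay), Col3a1 had a log2 value of 5.13 ± 1.22 (SE), Col1a2 of 3.85 ± 1.03, Col1a1 of 2.74 ± 1.06 and Sparc of 1.47 ± 0.56, Prps2null over Eμ-Myc/+. Of these 4, Col3a1 was past the adjusted threshold, as were 2.19% of the 8987 transcripts tested, and 2.16% as higher. It was not past it with TMM (5.12), library totals (4.87), a block by lymphoma (4.87) or scaling over the 12 libraries (4.83). Without the 2 Ribo-seq libraries in doubt the values were 3.10, 2.39, 1.26 and 1.92, and Col3a1 was again past it, with 3.62% of all transcripts. It was also not past it when the RNA libraries of those labels were left out as well (3.19), when Eμ-Myc/+ replicate 1, 2 or 3 was left out (5.16, 5.95 and 4.70), or when Prps2null replicate 2 or 3 was left out (3.65 and 5.29). The members entered through a list selected for raised TE, so these values describe the selection.

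Ratios of 2 members within a library do not depend on its scaling, and the length of each transcript cancels when such ratios are compared between libraries. The ratio of Col3a1 to Col1a1 counts in RNA was 1.22, 1.16 and 0.98 in Eμ-Myc/+ lymphomas and 0.14, 0.27 and 0.18 in Prps2null lymphomas. In footprints it was 1.34, 1.41 and 0.66 under the Eμ-Myc/+ label and 1.35, 1.12 and 0.75 under the Prps2null label. The exact 95% binomial intervals of the RNA ratios had an upper bound of at most 0.49 in Prps2null lymphomas. Their lower bound was at least 0.80 in Eμ-Myc/+ lymphomas. These intervals cover counting error within a library and not the spread between lymphomas. The rule that named the members used the RNA contrast, so the ratios are a description. The footprint ratios of the labelled groups overlapped, and those of Prps2null replicates 1 and 3, whose labels are not in doubt, were above the RNA ratios of the same lymphomas.

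The ratio of Col1a1 to Col1a2 counts, the genes of the type I collagen chains, was 2.83, 2.53 and 2.39 in Eμ-Myc/+ RNA and 7.18, 7.43 and 3.17 in Prps2null RNA. The Prps2null ratios rest on 7 to 12 Col1a2 counts, and their intervals are wide, for instance 1.62 to 6.66 in replicate 3. In footprints the ratio was 1.53, 1.76 and 1.76 under the Eμ-Myc/+ label and 1.07, 1.80 and 1.98 under the Prps2null label. All 6 footprint intervals overlapped. The 3 collagen genes made up 83.9% to 89.1% of the summed RNA CPM of the members in Eμ-Myc/+ lymphomas and 46.8% to 53.7% in Prps2null lymphomas, whereas in footprints their share was 76.3% to 94.4% and 57.5% to 92.4%, or 85.0% and 94.4% against 57.5% and 81.9% without the libraries in doubt.

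**Figure D4:**
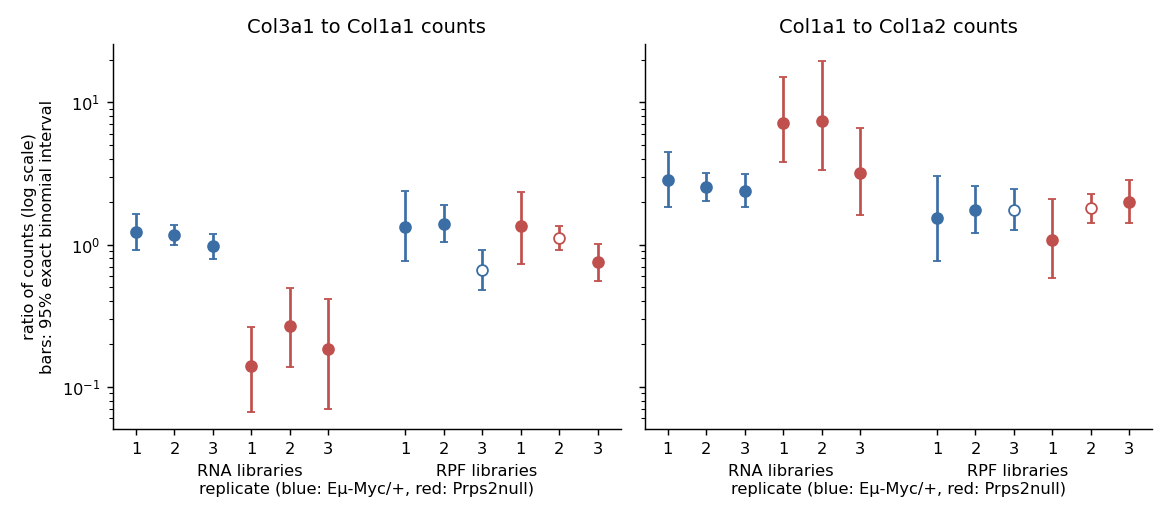
Ratios of counts within each library on a log scale, Col3a1 to Col1a1 on the left and Col1a1 to Col1a2 on the right, for RNA and footprint libraries of both genotypes, with exact 95% binomial intervals as bars and open points for the 2 Ribo-seq libraries in doubt. The Col3a1 to Col1a1 ratio is 0.14 to 0.27 in Prps2null RNA and 0.66 to 1.41 in all footprint libraries.

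The members moved unequally with one another. Over the 6 Ribo-seq libraries, Pearson's r of log2(CPM + 1) was 0.95 for Col3a1 with Col1a1, 0.97 for Col3a1 with Col1a2 and 0.98 for Col1a1 with Col1a2, but 0.09 for Col3a1 with Sparc. These values are a description of 6 libraries that differ in depth and genotype, and 1 library, Prps2null replicate 2, holds the top value of each gene. Over the 6 RNA libraries r was 0.89 for Col3a1 with Col1a1 and 0.95 with Col1a2, and −0.41 with Bgn.

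Over all 12 libraries, centred on the mean of each assay, the named transcripts whose pattern was most like that of Col3a1, members apart, were Kmt2a (r = 0.96), a histone methyltransferase, Lyst (0.96), a regulator of lysosomal trafficking, Rreb1 (0.95), a zinc finger transcription factor, Gmnn (0.94), an inhibitor of DNA replication licensing, Riox2 (0.94), a ribosomal oxygenase, and Dnah8 (0.94), a dynein heavy chain. Col1a2 stood between Lyst and Rreb1 at 0.95. Among 8845 transcripts compared, Col1a1 was at rank 167 (r = 0.86), Sparc at rank 3458 (0.21) and Bgn at rank 3904 (0.07). Of the 8845 transcripts 2459 carry a paired name, yet only 5 of those above Col1a1 had none. Most names come from lists selected on these samples, so this likeness is not independent of that selection. Kmt2a RNA, for example, was 671.7 to 791.7 CPM in Eμ-Myc/+ and 342.5 to 393.7 CPM in Prps2null lymphomas.

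Other matrix genes were taken from fixed lists, of which few members carry a paired name, most of them through lists that the study selected on these samples, so their counts are not independent evidence of a direction. The 7 other paired collagens, Col5a1, Col5a2, Col5a3, Col4a1, Col6a3, Col12a1 and Col14a1, had RNA log2 fold changes of −0.84 to 0.54 with a median of −0.01, beside a median of 0.08 over all transcripts, and 0 of 7 passed the test in either direction, where 33.2% of all transcripts did. Their mean RNA was low, at 3.05 to 8.77 CPM, with standard errors of 0.32 to 0.53, so that smaller changes could fail to pass. Col6a3, a chain of the beaded filament type VI collagen, was 4.49, 7.07 and 7.90 CPM in Eμ-Myc/+ RNA and 12.3, 11.4 and 8.26 CPM in Prps2null RNA. Col5a2, which joins type I collagen fibrils, was 3.21, 5.11 and 2.49 CPM and then 3.87, 1.33 and 2.27 CPM. Large negative RNA values were thus found for Col3a1, Col1a2 and Col1a1 among the 10 paired collagens. The 2 of these 7 collagens that passed the footprint count minimum, Col5a3 and Col4a1, had their highest footprints in the library labelled Prps2null replicate 3, at 27.7 and 24.0 CPM. The other 5, below that minimum, were highest in the library labelled Prps2null replicate 2, as were 15.8% of all transcripts tested.

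All 5 paired genes of collagen biosynthesis, out of 39 on the list, fell in Prps2null RNA (median −1.17 on the log2 scale, beside 18.5% of all transcripts that were lower). They were P4ha1 (−1.55 ± 0.21 SE) and P4hb (−0.85 ± 0.20), the subunits of prolyl 4-hydroxylase, Crtap (−1.31 ± 0.25) and Ppib (−1.17 ± 0.22), which act in prolyl 3-hydroxylation and folding, and Colgalt1 (−0.74 ± 0.20), which adds galactose to hydroxylysine. P4hb and Ppib also serve protein folding in the endoplasmic reticulum of every cell. In footprints by label 0 of 5 passed, beside 0.00% of all transcripts, and without the 2 libraries in doubt 1 of 5 fell, P4ha1 (−1.37 ± 0.22), beside 17.9% of all transcripts.

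Of 65 matrix glycoprotein and proteoglycan genes 14 were paired, and in Prps2null RNA 2 rose, 0 fell and the median was −0.03, beside 14.7% of all transcripts that rose and 18.5% that fell. The genes that rose were Lamc1 (1.98 ± 0.30 SE), the gamma chain of most laminins of the basement membrane, and Ltbp1 (1.27 ± 0.41), which stores latent TGF-β in the matrix. Lamc1 RNA was 2.99, 4.36 and 4.78 CPM in Eμ-Myc/+ and 18.9, 24.1 and 15.5 CPM in Prps2null lymphomas. Its footprints were 1.06, 10.0 and 44.7 CPM under the Eμ-Myc/+ label and 41.8, 12.3 and 63.5 CPM under the Prps2null label. For Lamc1 each of the 2 libraries in doubt lay nearer to the libraries of the other label. The library labelled Prps2null replicate 2 did not do so for Sparc or Nid1. Its Nid1 footprints were 16.5 CPM, beside 15.5 and 16.8 CPM in Prps2null replicates 1 and 3. Eμ-Myc/+ replicates 1 and 2 had 3.07 and 4.23 CPM of Nid1. The other library in doubt, labelled Eμ-Myc/+ replicate 3, had 16.9 CPM of Nid1, nearer to Prps2null replicates 1 and 3. Without the 2 libraries in doubt 4 of 5 tested genes of the list were higher in footprints, Sparc, Lamc1, Nid1 and Tgfbi, beside 18.0% of all transcripts.

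Of 8 paired transcripts for matrix receptors and remodelling, 1 rose in Prps2null RNA, Mmp14 (1.23 ± 0.34 SE), a membrane metalloproteinase that cleaves collagen, and 5 fell, beside the same shares of all transcripts, 14.7% and 18.5%. These were the integrin subunit Itgb1 (−0.60 ± 0.20), the lysosomal proteases Ctsb (−1.27 ± 0.22) and Ctss (−0.79 ± 0.20), and a pair of transcripts named Prodh, an enzyme of proline breakdown (−3.36 ± 0.25 and −3.12 ± 0.23). The Prodh transcripts share a symbol but carry different gene identifiers, and reads may be divided between them. Itgb1, Ctsb and Ctss are also made by B cells.

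**Figure D5:**
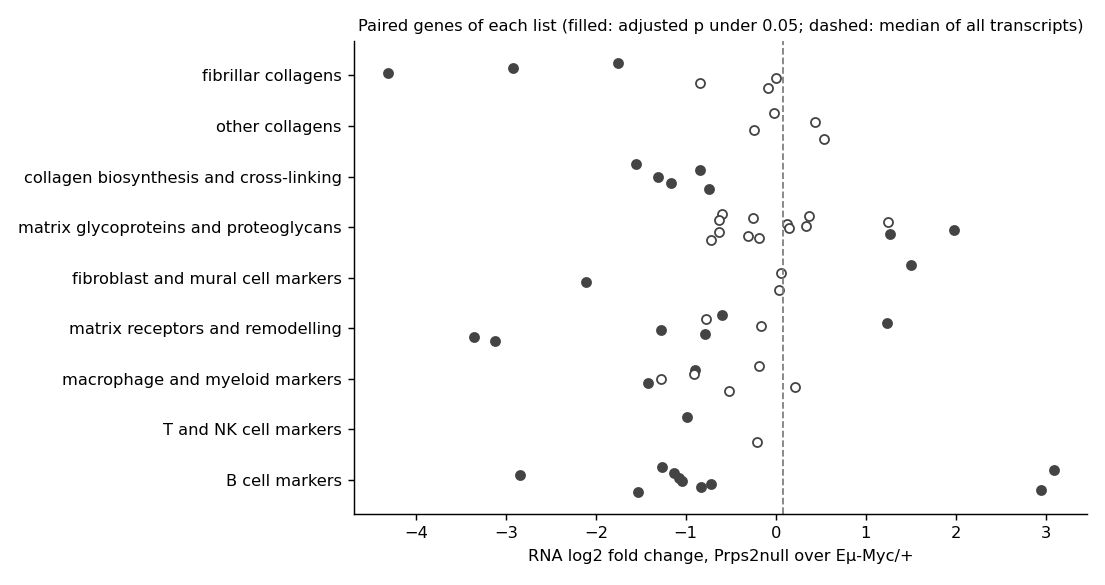
RNA log2 fold change of Prps2null over Eμ-Myc/+ for each paired transcript of the gene lists, filled where the adjusted p was under 0.05, with a dashed line at the median of all transcripts tested (0.08). Among the fibrillar collagens the 3 filled points are Col3a1, Col1a2 and Col1a1, all 5 genes of collagen biosynthesis are filled and negative, and the other collagens are open.

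Whether the libraries held stroma could be read only in part. Of 34 fibroblast and mural cell markers 4 were paired, Il33, Vcam1, Dpp4 and Anpep, and the defining markers Pdgfra, Pdgfrb, Thy1, Pdpn and Acta2 were not. Of these 4, 1 rose in Prps2null RNA, Il33 (1.50 ± 0.36 SE), a cytokine stored in reticular fibroblasts, and 1 fell, Dpp4 (−2.11 ± 0.21), a peptidase also found on lymphocytes, so that 1 of 4 passed in each direction beside 14.7% and 18.5% of all transcripts. The other 2 did not pass, with 0.06 ± 0.44 for Vcam1 and 0.04 ± 0.56 for Anpep. Without the 2 Ribo-seq libraries in doubt, footprints of Il33, Vcam1 and Anpep were higher and those of Dpp4 lower, in a fit where 18.0% of all transcripts were higher and 17.9% lower. The summed RNA level of these markers was 111.7 to 137.6 CPM in Eμ-Myc/+ and 46.1 to 68.7 CPM in Prps2null lymphomas, most of it Dpp4. The word stroma for the members thus rests on what these genes are known for and not on markers of these libraries. None of 21 endothelial markers and none of 13 erythroid and platelet markers was paired.

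Of 31 macrophage and myeloid markers 7 were paired, 0 rose and 2 fell in Prps2null RNA, Lyz2 (−0.90 ± 0.32) and C1qc (−1.42 ± 0.50), beside 14.7% and 18.5% of all transcripts. Their summed RNA level was 36.1 to 64.4 CPM in Eμ-Myc/+ and 27.3 to 56.3 CPM in Prps2null lymphomas. Their summed footprints were 82.0 to 224.5 CPM and 143.5 to 288.3 CPM, and without the libraries in doubt 4 of the 6 tested were higher and 0 lower, beside 18.0% and 17.9% of all transcripts. Of 22 T and NK cell markers 2 were paired, of which Lck fell (−0.99 ± 0.21). Of 24 B cell markers 10 were paired, with a summed RNA level of 1251 to 1633 CPM in Eμ-Myc/+ and 654.3 to 1051 CPM in Prps2null lymphomas, where 2 rose and 8 fell. For these lists too, the shares of all transcripts were 14.7% higher and 18.5% lower. None of the paired markers named here was at 0 in an RNA library. The part of these other cells in the values of the matrix genes was not tested.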

How the data were processed

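RNA-seq and Ribo-seq libraries came from B cells enriched from lymphomas of 2 genotypes, 3 libraries per genotype and assay. Per the labels, reads were trimmed with cutadapt 2.3 and aligned with Bowtie2 2.3.5 (mm10), to 1 isoform per gene, that with the longest coding sequence. The RNA values the authors deposited are raw counts per transcript. For Ribo-seq the authors deposited expected counts, made after collapse of molecular identifiers and correction of codon counts for stalling, and 54.3% were not whole. A whole transcript's footprints are one value, so their place along the mRNA is not known.

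Expected counts were rounded. Each assay was tested with edgeR 4.0.16 (R 4.3.3, limma 3.58.1), using its default filter on low counts, median-of-ratios scaling within the assay and a Benjamini-Hochberg adjusted p under 0.05 over all transcripts tested. TE was tested across the 12 libraries as a genotype by assay interaction. Fits were tested on simulated data. CPM use the library totals. Intervals (95%) cover counting error only, and p-values only the spread between these samples. No coding lengths were given, so the Col1a1 to Col1a2 ratio is of counts and was not divided by length as planned. Alternatives were TMM, library totals, DESeq2 1.42.0, logistic regression, scaling over the 12 libraries, 2 filters, replicate and lymphoma blocks, and leaving out libraries.

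The members and lists were chosen with earlier results of these data known. Names come from the study's lists, 2229 of 2634 of them selected on these samples. The text names every paired member, from each list the genes highest in RNA or with the lowest or highest RNA log2 fold change, and the 6 named transcripts most like Col3a1 (Pearson's r of log2(CPM + 1), at least 5 CPM on average in both assays). Nid1, Tgfbi, Crtap, Colgalt1, Col5a3, Col4a1, Itgb1, Ctsb, Ctss and other genes that make up a small count were named after their values were seen.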

Additional observations from a re-analysis of the deposited data

How the results depend on the processing

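The RNA values of Col3a1, Col1a1, Col1a2 and Sparc kept their sign under every alternative that gave one (Col3a1 −4.61 to −4.04). Library totals alone moved the median RNA log2 fold change of all transcripts from 0.08 to 0.37 and the calls from 2163 higher and 2712 lower to 3851 and 1668, and kept the sign of all 5 members. Leaving out libraries gave 2724 to 5345 RNA calls, the lowest without Eμ-Myc/+ replicate 1, and −0.011 to 0.60 for Bgn, the lowest without Prps2null replicate 1. With at least 10 counts in every library 1 member was called in RNA, since 2 were no longer tested. Same-numbered lymphomas are different lymphomas, so the numbers were not taken as pairs. Their deviations from the group means correlated at −0.20, −0.11 and 0.03 in RNA and −0.63, 0.74 and 0.72 in Ribo-seq. The Ribo-seq values include the libraries in doubt. The replicate block gave 3992 calls in RNA, 0 in Ribo-seq and 265 in TE, −4.29, 0.50 and 4.80 for Col3a1, and 2 members called in TE (Col3a1 and Col1a2).

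In Ribo-seq, leaving out both libraries in doubt gave 3248 calls against 0, and turned Col3a1 to −1.21, Col1a1 to −0.49 and Col1a2 to −0.54. Without Prps2null replicate 2 alone they were −0.81, −0.33 and −0.36. Leaving out 1 library at a time gave −0.81 to 1.83 for Col3a1, −0.33 to 1.63 for Col1a1 and −0.36 to 1.51 for Col1a2.

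In TE the 197 calls became 578 with DESeq2, 20 with library totals, 5017 with logistic regression, 119 with no filter, 42 with the lymphoma block, 106 with scaling over the 12 libraries, 101 without both lymphomas of the doubted labels, 326 without both Ribo-seq libraries, and 0 to 174 without 1 lymphoma (0 without Eμ-Myc/+ replicate 1 or 2). Col3a1 was no longer past the threshold with TMM (5.12), library totals (4.87), the lymphoma block (4.87), scaling over the 12 libraries (4.83) or without both lymphomas (3.19), and ranged from 3.65 to 5.95 without 1 lymphoma. Members called in TE were 0 in each of those, 0 with the 10-count filter, which did not test Col3a1, 4 with logistic regression, and 0 to 1 without 1 lymphoma. The summed RNA CPM of the members in Eμ-Myc/+ lymphomas was 60.6 without Col3a1. The causes were not tested. Depth limits the Prps2null RNA of Col3a1 and Col1a2, at 7 to 14 counts, and Bgn footprints.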
